A study of Mus musculus with 24 samples.

Results

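The region described here is the stretch of mouse chromosome 2 that lies past Ttf1, the gene cut by Cas9 in one arm of the study. In build GRCm38, Ttf1 starts at position 29060262 of chromosome 2 and lies on the plus strand. The members are the genes of chromosome 2 whose lowest annotated start lies beyond the end of Ttf1 and whose mean count over the 24 libraries is 10 or more. This gave 992 members, out of 3134 annotated genes past Ttf1 and 16224 genes with that mean count in the genome (55471 genes annotated in all). They span 152.8 Mb, up to position 181870830. Each of the 24 RNA-seq libraries was made from poly(A) RNA of 10 pooled B6D2F1 mouse embryos, in 6 groups of 4 libraries. Wild-type embryos (WT), embryos injected as zygotes with Cas9 protein at 100 ng per microlitre and 3 guide RNAs against Ttf1 at 50 ng per microlitre each (Ttf1KO), and embryos injected with Cas9 and 3 guide RNAs against Zfp622 on chromosome 15 (Zfp622KO) were each collected at the late 2-cell and morula stages. The zygotes came from superovulated B6D2F1 females of 3 to 4 weeks mated with males of that strain. Whether the wild-type embryos were injected is not given in the sources used here, and the edited embryos are pools of injected zygotes, not a line.

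Ttf1 encodes the factor that ends transcription of the ribosomal RNA genes by RNA polymerase I and that also helps to start it. Zfp622 encodes a zinc finger protein whose yeast relative acts in assembly of the large ribosomal subunit. Cas9 cuts both strands of DNA, and the ends are usually rejoined with small insertions or deletions. In mouse and human zygotes such a cut can also be followed by loss of the part of the chromosome on the far side of the cut from the centromere, and mouse chromosomes carry the centromere at one end, so that nearly all of chromosome 2 past Ttf1 is on the far side. Genes of such a part share their copy number, whatever they encode. DNA was not measured here.

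Total counts per library ranged from 10538723 to 17807596. Ttf1 levels in CPM, counts scaled to a common library total, were 32.8, 27.5, 38.9 and 33.5 in the Ttf1KO late 2-cell libraries against 83.3 to 94.7 in WT, and 23.9 to 27.2 against 41.3 to 44.8 at the morula stage. The Ttf1 transcript fell by 1.45 ± 0.11 (log2 fold change ± SE, edgeR adjusted p = 3.2e-07) at the 2-cell stage and by 0.76 ± 0.10 (adjusted p = 3.5e-05) at the morula stage, and Zfp622 fell by 1.42 ± 0.16 and 1.78 ± 0.28 in its own knockout. All Ttf1KO libraries were sequenced on lane 1 and all others on lane 2, so lane and Ttf1 genotype cannot be told apart. The other autosomes, measured on the same lanes, serve as the reference for the library values, medians and windows that follow. The levels and calls of single members have no such reference, so lane and Ttf1 genotype cannot be told apart there. The libraries carried the markers of their stage: 6 late 2-cell genes summed to 686 ± 95.7 CPM (SD, n = 4) in WT, 499 ± 108.9 CPM in Ttf1KO and 532 ± 163 CPM in Zfp622KO 2-cell embryos. In morulae they summed to 14.1 ± 9.38, 35.5 ± 22.8 and 30.8 ± 6.05 CPM. The 6 morula markers summed to 2787 ± 54.1 CPM in WT morulae, 1678 ± 203 CPM in Ttf1KO and 1860 ± 213 CPM in Zfp622KO morulae, so both knockout groups sat lower in morula markers. The mean of the 2-cell markers was lower in both knockouts at the 2-cell stage and higher in both in morulae, with overlapping libraries, and the part of these differences in the member values below was not tested. Of 12 cumulus and granulosa cell genes 8 had a mean under 1 CPM in each 2-cell group and 10 in each morula group. All 12 summed to 68.0 ± 9.25, 78.8 ± 9.74 and 67.2 ± 7.86 CPM in WT, Ttf1KO and Zfp622KO 2-cell embryos. In morulae the sums were 18.7 ± 2.58, 23.7 ± 3.84 and 23.2 ± 2.28 CPM. Libraries overlapped at both stages, and the part of these genes in the member values was not tested. The 7 sperm genes together stayed at or below 4.57 CPM in every library. Summed levels of 5 oocyte genes (12.7 ± 2.21, 27.5 ± 0.653 and 27.6 ± 4.26 CPM in WT, Ttf1KO and Zfp622KO morulae) and of 8 blood cell genes, 6 of them under 1 CPM (11.2 ± 1.84, 24.97 ± 6.94 and 29.4 ± 4.91 CPM), were also higher in both knockouts at the morula stage, and their part in the member values was not tested.

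Of the 992 members 836 are protein coding, 73 are processed pseudogenes, 23 are antisense genes and 16 are lincRNAs. The members resemble the 14394 counted genes of the other autosomes (1 and 3 to 19) in sequence, with a median GC content of 49.02% against 48.84% and a median exonic length of 3842 against 3611 bases. The stretch also holds a large block of olfactory receptor genes, of which 3 of 370 (Olfr symbols) reached the mean count, and 765 of its genes had 0 counts in every library. Just outside the minimum lay Gm14022 (mean count 9.92), Hnf4a (9.96) and Gm13738 (9.96), and just inside lay Rbmx2-ps (10.04), Mageb3 (10.1) and Ctxn2 (10.3). After a filter on low counts 927 members were tested at the 2-cell stage and 891 at the morula stage, and all 992 in the fits over both stages.

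The annotated start sites of 6 members that the results turn on are shown, so that their first bases can be compared. The windows come from RefSeq (GRCm38.p6) and hold 60 bases before and 20 bases from the start site, with capitals marking the first transcribed base and any unbroken run of C and T that follows it. Rps21 and Rpl35, which encode ribosomal proteins, Eif2s2, a translation initiation factor, and Zfas1, a host of small nucleolar RNAs, fell in Ttf1KO at the 2-cell stage, while Clp1, a kinase of RNA end processing, and Ivd, an enzyme of leucine breakdown, were lowest against Zfp622KO at the morula stage.
Rps21 (chr2:180257319-180257398, plus strand): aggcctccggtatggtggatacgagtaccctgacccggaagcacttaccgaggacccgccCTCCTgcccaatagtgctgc
Rpl35 (chr2:39005112-39005191, minus strand): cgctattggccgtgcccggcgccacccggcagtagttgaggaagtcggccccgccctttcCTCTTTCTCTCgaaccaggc
Eif2s2 (chr2:154892887-154892966, minus strand): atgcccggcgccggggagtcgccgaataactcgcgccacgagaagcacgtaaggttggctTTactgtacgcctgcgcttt
Zfas1 (chr2:167062874-167062953, plus strand): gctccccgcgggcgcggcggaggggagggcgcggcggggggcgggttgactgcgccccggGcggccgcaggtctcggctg
Clp1 (chr2:84727268-84727347, minus strand): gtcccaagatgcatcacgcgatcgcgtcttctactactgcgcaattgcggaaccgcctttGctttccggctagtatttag
Ivd (chr2:118861934-118862013, plus strand): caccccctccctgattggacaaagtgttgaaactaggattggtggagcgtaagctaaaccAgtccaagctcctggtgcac
Rps21 (the first of its RefSeq start sites) and Rpl35 start with C followed by C and T only, for 5 and 11 bases, the start typical of ribosomal protein genes. The second RefSeq start of Rps21 begins with T and has no further pyrimidine in its run, Eif2s2 starts with a pair of T bases, and Zfas1 starts with G, so not all of these 2-cell falls share that start. Clp1 and Ivd start with a purine, as Zfas1 does. A start of C and then 4 pyrimidines was present in 23 of 760 members with a RefSeq promoter (3.03%) and in 290 of 9441 genes of the other autosomes (3.07%). The 8-letter core of the site that the Ttf1 protein binds in ribosomal DNA, GGTCGACC (its own reverse complement, searched over 300 bases), stood in 3 of 760 member promoters (0.395%), 15 of 9441 on the other autosomes (0.159%) and 30 of 27025 promoters in all (0.111%).

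To ask whether the members moved as a block, each library was given 1 value: the median over the members of the log2 CPM difference from the WT libraries of its stage, minus the same median over the other autosomes. A value of 0 means that chromosome 2 past Ttf1 kept pace with the rest of the genome. In the WT morula libraries these values were 0.005, 0, 0.006 and -0.011, and in the Ttf1KO morula libraries -0.092, -0.243, -0.223 and -0.229. All 4 Ttf1KO morula libraries lay below all 4 WT libraries, and as a change of level their values come to -6.2% to -15.5%. The Zfp622KO morula libraries were at -0.04, -0.004, -0.105 and -0.072. Library 2 of Zfp622KO lay within the WT range, libraries 1 and 4 between WT and Ttf1KO, and library 3 below the highest Ttf1KO library.

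At the late 2-cell stage the Ttf1KO libraries were at -0.102, -0.111, 0.03 and -0.226, the WT libraries between -0.019 and 0.024, and the Zfp622KO libraries between -0.014 and 0.035. Libraries 1, 2 and 4 of Ttf1KO lay below every library of the other groups, and library 3 lay within them. The mean was -0.102 ± 0.105 (SD, n = 4) in 2-cell and -0.197 ± 0.070 in morula Ttf1KO embryos, against 0.007 ± 0.021 and -0.055 ± 0.043 in Zfp622KO. Of the members, 75% were below the WT reference in 2-cell Ttf1KO library 4 and 47.0% in library 3. In these pools of 10 embryos, fewer cells carrying a member at full level and a lower level in every cell cannot be told apart.

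**Figure D1:**
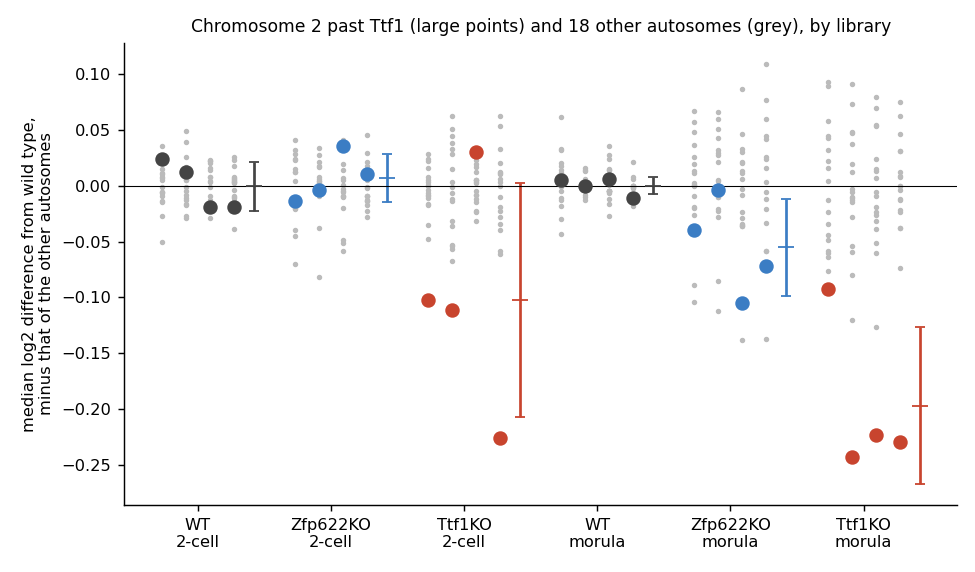
Each large point is 1 library, the vertical axis its median log2 difference from the wild-type libraries over the members minus that over the other autosomes, grey points are the 18 other autosomes of that library, and bars are mean ± SD of 4 libraries. The 4 Ttf1KO morula libraries sit between -0.243 and -0.092, and 1 of 4 Ttf1KO 2-cell libraries sits at 0.03 among the controls.

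The same quantity for each of the 18 other autosomes shows how far a whole chromosome strays. Over 24 libraries these 432 values ran from -0.138 to 0.109, and 86.6% were within 0.05 of 0. In every Ttf1KO library except 2-cell library 3, 0 of the 18 other autosomes were below the members, while in that library 17 were. The lowest values of any other autosome were those of chromosome 18 in morulae, -0.138 and -0.137 in Zfp622KO libraries 3 and 4 and -0.126 in Ttf1KO library 3.

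As a share of all autosomal counts, which needs no median, the members took 5.84% to 5.95% in WT morulae, 5.62% to 5.87% in Zfp622KO morulae, and 5.46%, 4.75%, 5.03% and 4.89% in Ttf1KO morulae. At the 2-cell stage the shares were 5.77% to 5.99% in WT, 5.90% to 6.07% in Zfp622KO, and 5.48%, 5.41%, 5.96% and 5.14% in Ttf1KO. The share thus placed the same 3 of 4 Ttf1KO 2-cell libraries below the controls, and all 4 Ttf1KO morula libraries below both WT and Zfp622KO.

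The fits to all genes gave the size of the shift for each comparison. In Ttf1KO against WT at the 2-cell stage the median log2 fold change was -0.095 over 927 members, 0.103 below that of the other autosomes, a difference of -6.87% in level. At the morula stage it was -0.181 over 891 members, 0.218 below the other autosomes (-14%). Against Zfp622KO, made by the same injection protocol, the differences were -0.113 and -0.163. Zfp622KO against WT gave 0.006 at the 2-cell stage and -0.055 at the morula stage. These comparisons share libraries, so they are not separate evidence. In the 4 comparisons that involve Ttf1KO 0 of 18 other autosomes had a median below the members; the nearest were chromosome 18 against WT (-0.05 and -0.112), chromosome 13 against Zfp622KO at the 2-cell stage (-0.029) and chromosome 14 at the morula stage (-0.046). In Zfp622KO against WT 13 of 18 lay below the members at the 2-cell stage and 2 of 18 at the morula stage.

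**Figure D2:**
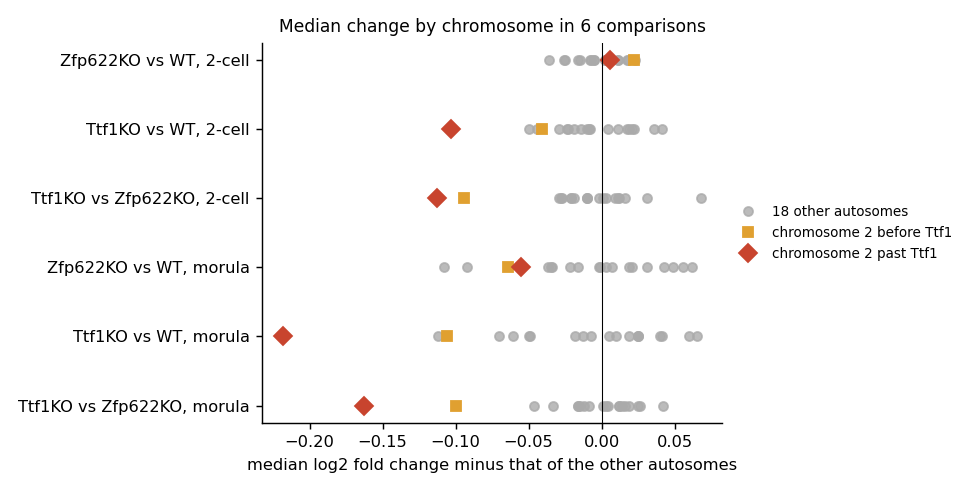
Each row is a comparison and the horizontal axis is the median log2 fold change minus that of the other autosomes, with grey points for the 18 other autosomes, a square for the 189 genes of chromosome 2 before Ttf1 and a diamond for the members. In the 4 rows with Ttf1KO the diamond is the lowest symbol, from -0.103 to -0.218.

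The genes of chromosome 2 on the centromere side of Ttf1 give a comparison within the chromosome. Their 189 counted genes had a median of -0.041 in Ttf1KO against WT at the 2-cell stage and -0.106 at the morula stage, in each case relative to the other autosomes, so closer to 0 than the members. Against Zfp622KO they were at -0.094 and -0.1, next to -0.113 and -0.163 for the members. There the genes before Ttf1 also lay below all 18 other autosomes, whose lowest medians were -0.029 and -0.046. A median below the other autosomes was thus not particular to the members in those comparisons. Against WT, chromosome 18 (-0.05 and -0.112) lay below the genes before Ttf1 at both stages. By library, the step at Ttf1 was clear in 2-cell library 4, at -0.073 before and -0.226 past the gene, and in morula libraries 3 (-0.081 and -0.223) and 4 (-0.06 and -0.229). Morula library 2 had the lowest value before the gene (-0.157) as well as past it (-0.243), and morula library 1 was at -0.021 and -0.092. The step was small in 2-cell libraries 1 (-0.091 and -0.102) and 2 (-0.078 and -0.111), and library 3 was low on neither side (0.051 and 0.03). The difference between the sides was not tested.

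Along the members, windows of 10 Mb counted from the end of Ttf1 were lower in Ttf1KO throughout. All 16 windows had a median below that of the other autosomes in Ttf1KO against WT and against Zfp622KO, at both stages, while in Zfp622KO against WT 7 of 16 were below at the 2-cell stage and 13 of 16 at the morula stage. One window, from 10 to 20 Mb, held fewer than 20 tested genes. In Ttf1KO against Zfp622KO morulae the windows ranged from -0.079 in that thin window to -0.249 at 50 to 60 Mb, and those from 50 to 80 Mb were the lowest, at -0.249, -0.229 and -0.229. The first window past the gene was at -0.165 and the last, at 150 to 160 Mb, at -0.142. In 2-cell library 4 the 20 Mb windows were all between -0.161 and -0.294, and in library 3 all between -0.038 and 0.068, so the first was low, and the second level, over the whole length.

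**Figure D3:**
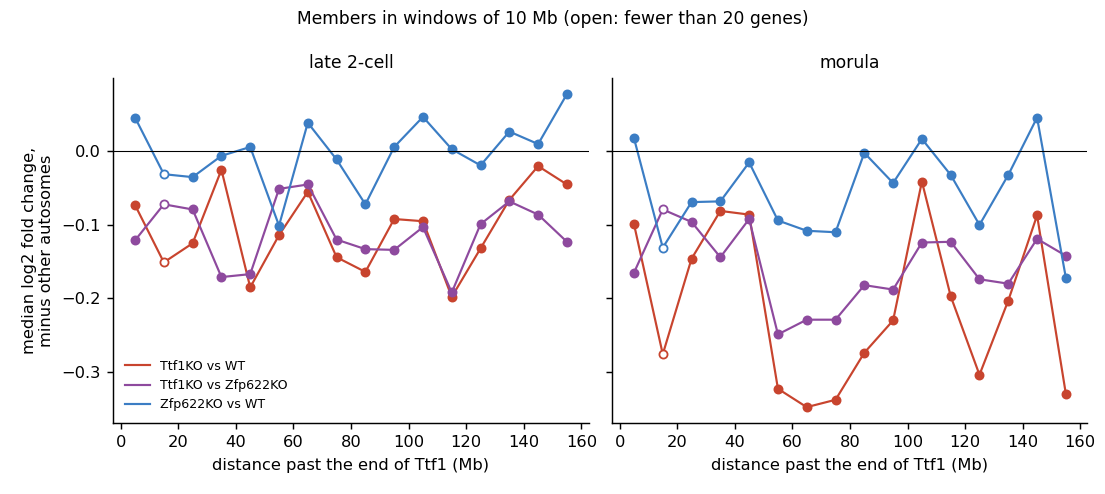
The horizontal axis is the distance past the end of Ttf1 in Mb and the vertical axis the median log2 fold change of the members in windows of 10 Mb minus that of the other autosomes, with open points for fewer than 20 genes. The 2 lines for Ttf1KO stay below 0 in all 16 windows at both stages, and the line for Zfp622KO against WT crosses 0.

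The lower level was found across kinds of member. At the 2-cell stage members with low, middle and high expression (equal parts of all genes by mean level) were 0.113, 0.099 and 0.108 below the other autosomes in Ttf1KO against WT, and in Ttf1KO against Zfp622KO morulae 0.127, 0.162 and 0.176 below. From the 2-cell to the morula stage in WT, 410 members fell (41.3%) and 435 rose (43.9%), beside 46.1% and 37.9% of all genes tested. Members that fell, did not pass the test or rose in that comparison were 0.197, 0.168 and 0.146 below the other autosomes in Ttf1KO against Zfp622KO morulae. In Ttf1KO against WT morulae the same 3 classes differed more, at -0.32, -0.217 and -0.159. Zfp622KO against WT morulae also had its lowest value in the class that fell, at -0.167, -0.028 and -0.038. By expression, the low, middle and high classes were at -0.135, -0.242 and -0.224 in Ttf1KO against WT morulae. Protein-coding members were at -0.163 and others at -0.14 in Ttf1KO against Zfp622KO morulae, and at -0.223 and -0.09 in Ttf1KO against WT morulae, so the size there differed by class while the direction did not.

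Few members passed the test singly at the 2-cell stage. In Ttf1KO against WT at the 2-cell stage 21 of 927 members fell (2.27%) and 4 rose (0.431%), beside 0.799% and 0.739% of all genes tested (edgeR quasi-likelihood test, adjusted p at most 0.05). The Ttf1KO libraries were wholly below WT for 88 members (9.49%) and wholly above for 14 (1.51%), beside 5.07% and 4.87% of all genes. The count of falls rested on single libraries: it was 7 without WT library 2, 9 without WT library 4, 11 without Ttf1KO library 2 and 8 without Ttf1KO library 4. DESeq2 called 47 members lower (5.07%) and 5 higher (0.539%) there, beside 2.11% and 1.91% of all genes.

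Rps21, a protein of the small ribosomal subunit, was at 146, 126, 136 and 127 CPM in Ttf1KO and at 202, 239, 194 and 178 CPM in WT 2-cell embryos. Rpl35, of the large subunit, was at 88.4, 94.6, 98.7 and 78.7 CPM against 134, 174, 126 and 136 CPM. For both genes every Ttf1KO library was below every WT library, library 3 included, although its member median was not low. Rps21 fell by 0.61 ± 0.092 (adjusted p = 0.00348) and Rpl35 fell by 0.66 ± 0.10 (adjusted p = 0.00348). Ribosomal protein genes have processed copies elsewhere in the genome, and how reads shared with such copies were assigned could alter these counts. The third ribosomal protein gene of the region, Rpl12, did not pass the test at this stage. In morulae Rps21 was at 451 to 599 CPM in Ttf1KO and 463 to 494 CPM in WT, overlapping, and neither Rps21 (0.16 ± 0.080, adjusted p = 0.12) nor Rpl35 (-0.03 ± 0.075, adjusted p = 0.805) passed the test.

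By function list, the 2-cell falls included 1 of 9 translation members, 2 of 11 in ribosome assembly, RNA polymerases I and III and small nucleolar RNA hosts, 1 of 15 in splicing and RNA processing, 1 of 20 in mitosis, 1 of 14 in DNA replication and repair, 1 of 12 lineage genes and 1 of 12 chaperones and proteins of the endoplasmic reticulum. Falls numbered 0 among 11 members of proteasome and ubiquitin, 13 of cell death and stress and 4 imprinted genes. These counts stand beside 2.27% of all members and 0.799% of all genes called lower. Eif2s2, a subunit of the factor that brings the initiator tRNA to the ribosome, was at 562, 503, 559.6 and 452 CPM in Ttf1KO, 655, 889, 687 and 743 CPM in WT and 683 to 757 CPM in Zfp622KO, so Ttf1KO was below both groups. It fell by 0.52 ± 0.091 against WT (adjusted p = 0.00888). Esf1, a nucleolar protein of ribosome assembly, was at 158 to 227 CPM against 261 to 340.3 CPM, and fell by 0.53 ± 0.11 (adjusted p = 0.0196). Its call was lost without WT library 2, WT library 4 or Ttf1KO library 4. Zfas1, a host of small nucleolar RNAs, was at 27.1 to 39.5 CPM against 46.3 to 60.8 CPM, with the groups apart (-0.76 ± 0.14, adjusted p = 0.0108).

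Ppig, a prolyl isomerase linked to splicing, fell by 0.64 ± 0.089 (adjusted p = 0.00184), from 528 to 626 CPM in WT to 314 to 403 CPM in Ttf1KO. Pfdn4, a subunit of the chaperone prefoldin, fell by 0.78 ± 0.16 (adjusted p = 0.0238), a call lost without WT library 2 or 4 or Ttf1KO library 2, 3 or 4.

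Of the 4 members that rose at the 2-cell stage, Ss18l1, a subunit of chromatin remodelling complexes, rose by 0.81 ± 0.19 (adjusted p = 0.0367), from 8.11 to 10.8 CPM in WT to 12.7 to 23.2 CPM in Ttf1KO. Zfp120, a zinc finger gene, rose by 0.54 ± 0.12 (adjusted p = 0.0319), from 46.3 to 67.0 to 74.3 to 84.3 CPM. Zfp622KO libraries stood at 12.1 to 16.9 CPM for Ss18l1, overlapping Ttf1KO. Each of these rises was lost when any of 7 of the 8 libraries compared was left out. The other rises, Gm14139 and 2900097C17Rik, fall outside the rule for named members and are named because the count is small.

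Sp3os, annotated as antisense to the transcription factor gene Sp3, had the largest fall in Ttf1KO against WT at the 2-cell stage among the members named by rule. It was at 103.1, 102, 104.97 and 102 CPM in Ttf1KO 2-cell embryos, 228, 194, 159 and 183 CPM in WT and 133 to 173 CPM in Zfp622KO, so Ttf1KO was below both groups. It fell by 0.89 ± 0.10 against WT (adjusted p = 2.8e-04). In morulae it went the other way: it rose by 1.07 ± 0.11 in Ttf1KO (adjusted p = 5.8e-06) and rose by 1.10 ± 0.11 in Zfp622KO (adjusted p = 1.3e-05). Counting used no strand, so reads of Sp3os cannot be told apart from those of an overlapping gene on the other strand. Ccdc173, a coiled-coil gene, showed the same pair of directions at a lower level, with 4.28 to 6.48 CPM in Ttf1KO and 8.01 to 11.4 CPM in WT at the 2-cell stage (-0.87 ± 0.22, adjusted p = 0.05), a call lost without any one WT library or Ttf1KO library 2, 3 or 4. In morulae it rose by 1.01 ± 0.22 (adjusted p = 0.00174).

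Against Zfp622KO at the 2-cell stage 2 members were called lower and 0 higher, beside 0.0179% of genes in each direction. They were Sp3os (-0.60 ± 0.10, adjusted p = 0.0355) and Rps21 (-0.53 ± 0.092, adjusted p = 0.0355), 2 of the 3 genes called lower in the genome. At an unadjusted p under 0.05 there were 110 members lower (11.9%) and 8 higher (0.863%), beside 4.07% and 4.05% of all genes. The libraries did not overlap for 50 lower and 2 higher, beside 2.42% and 2.24% of all genes. Leaving out 1 library left 0 calls (without Ttf1KO library 1, 2 or 4 or Zfp622KO library 3 or 4) or 1 (without Ttf1KO library 3 or Zfp622KO library 1 or 2). Zfp622KO against WT gave 0 calls in either direction at this stage by edgeR and by DESeq2, beside 0.0119% lower and 0.00596% higher of all genes by edgeR and 0.0418% and 0.0656% by DESeq2. At an unadjusted p under 0.05 in edgeR 27 members were lower (2.91%) and 28 higher (3.02%), near the 3.06% and 3.37% of all genes. There 10 members were wholly below WT and 14 wholly above, beside 1.56% and 1.65%.

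In morulae both knockouts differed from WT at many genes. In Ttf1KO 275 of 891 members fell (30.9%) and 99 rose (11.1%), beside 17.9% and 21.3% of all genes tested, and 266 members were wholly below WT and 86 wholly above, beside 17.4% and 19.1%. In Zfp622KO 137 members fell (15.4%) and 117 rose (13.1%), beside 13.5% and 15.6% of all genes, and 169 were wholly below and 129 wholly above, beside 15.2% and 15.6%. Falls outnumbered rises among the members in Ttf1KO, while among all genes rises outnumbered falls, and in Zfp622KO both shares of members were near those of all genes. Counting only changes of 1 or more on the log2 scale, 29 members fell (3.25%) and 53 rose (5.95%) in Ttf1KO morulae, beside 2% and 10.2% of all genes. In Zfp622KO morulae 16 fell (1.8%) and 52 rose (5.84%), beside 1.18% and 7.42%. The count headers give 2 sample numbers for WT morula libraries 3 and 4 and for WT 2-cell library 4, and 1 for every other library. Without WT morula libraries 3 and 4, which leaves WT libraries 1 and 2, 198 members fell and 58 rose in Ttf1KO morulae. These were 21.9% and 6.42%, beside 10.6% and 11.8% of all genes. In Zfp622KO morulae 68 then fell and 54 rose (7.53% and 5.98%, beside 6.03% and 6.85%).

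The knockouts were also compared with each other in morulae. Ttf1KO was lower for 6 members and higher for 0, beside 0.101% and 0.128% of all genes tested, and the 6 were among 15 genes called lower in the genome. They were Clp1, Ivd, Ckmt1, Rae1, Depdc7 and Uqcc1. At an unadjusted p under 0.05 there were 179 members lower (20.1%) and 15 higher (1.68%), beside 6.26% and 6.92% of all genes. The libraries were wholly lower for 82 members and wholly higher for 7, beside 2.89% and 3.29% of all genes. DESeq2 called 33 members lower (3.7%) and 2 higher (0.224%), beside 0.714% and 1.07% of all genes. The edgeR count rested on single libraries: it was 18 without Ttf1KO library 1, 14 without Zfp622KO library 4, 1 without Zfp622KO library 1 or 2, and 0 without Ttf1KO library 2, 3 or 4 or Zfp622KO library 3.

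Clp1 was at 66.4, 77.8, 95.4 and 88.4 CPM in Ttf1KO morulae, 116, 148, 140.2 and 123 CPM in Zfp622KO and 169, 199, 153 and 142 CPM in WT, with Ttf1KO below both groups. It fell by 0.68 ± 0.12 against Zfp622KO (adjusted p = 0.0323) and fell by 1.01 ± 0.12 against WT (adjusted p = 2.1e-05). Ivd was at 9.82, 9.59, 10.3 and 8.29 CPM in Ttf1KO, 18.6, 14.7, 18.8 and 15.3 CPM in Zfp622KO and 10.8 to 15.5 CPM in WT, again with Ttf1KO lowest, and fell by 0.83 ± 0.14 against Zfp622KO (adjusted p = 0.0268). Rae1, a factor of mRNA export and of the mitotic spindle, was at 68.0 to 84.2 CPM in Ttf1KO, 100.3 to 114 CPM in Zfp622KO and 126 to 144 CPM in WT, 3 ranges that did not overlap (-0.44 ± 0.081 against Zfp622KO, adjusted p = 0.0323). Ckmt1, a mitochondrial creatine kinase, was at 89.7 to 99.5, 106.9 to 150.2 and 152 to 168 CPM in the same order, also without overlap (-0.47 ± 0.089, adjusted p = 0.0394). At the 2-cell stage none of Clp1, Rae1, Ivd and Ckmt1 passed the test in any of the 3 comparisons.

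Depdc7 was at 113 to 119 CPM in Ttf1KO morulae, 143 to 178 CPM in Zfp622KO and 172 to 188 CPM in WT, and fell by 0.44 ± 0.074 against Zfp622KO (adjusted p = 0.0217). Uqcc1, an assembly factor of respiratory complex III, was at 146 to 163 CPM in Ttf1KO, 164 to 187 CPM in WT and 192 to 203 CPM in Zfp622KO, so WT lay between the knockouts (-0.33 ± 0.066 against Zfp622KO, adjusted p = 0.0476). It did not pass the test in Ttf1KO (-0.15 ± 0.065, adjusted p = 0.0704) or in Zfp622KO (0.17 ± 0.065, adjusted p = 0.0534) against WT. The calls of all 6 members against Zfp622KO were lost when Ttf1KO library 2, 3 or 4 or Zfp622KO library 3 was left out.

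**Figure D4:**
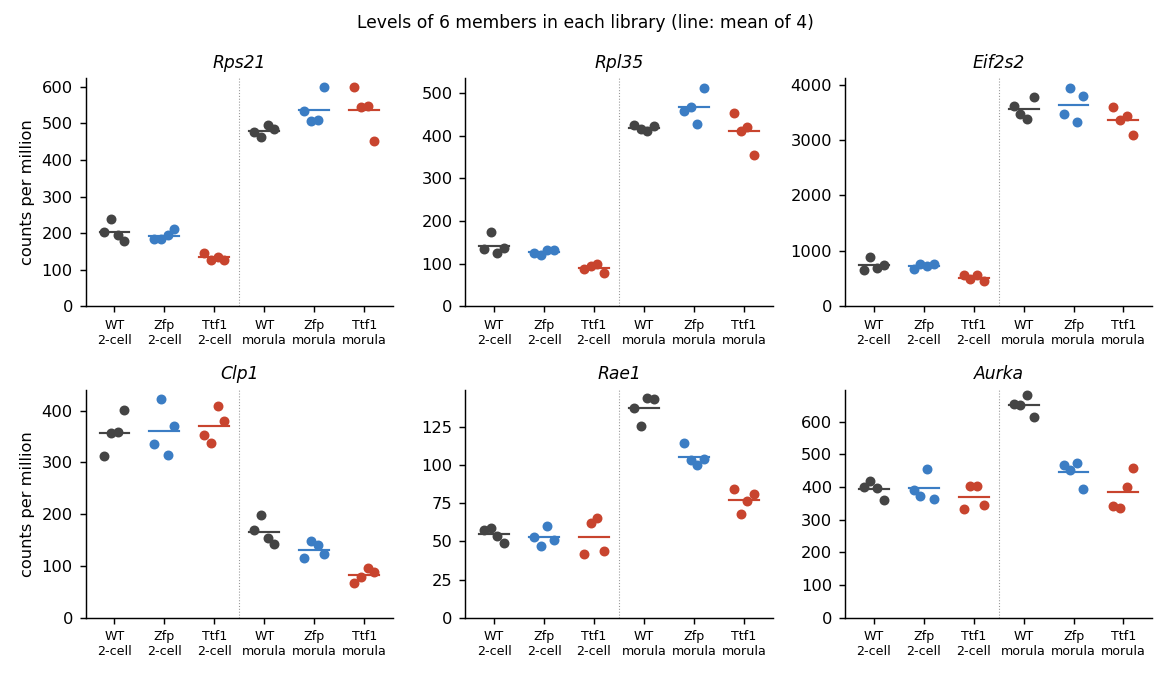
Points are the CPM of 6 members in each library, lines the mean of 4 libraries, and the dotted line separates the 2-cell from the morula stage. Rps21, Rpl35 and Eif2s2 are low in Ttf1KO at the 2-cell stage, and Clp1, Rae1 and Aurka at the morula stage, where Clp1 is at 66.4 to 95.4 CPM in Ttf1KO and 142 to 199 CPM in WT.

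The members were also read by what they do, over 11 lists of genes. In Ttf1KO morulae 12 of 20 members of mitosis fell and 2 rose, with a median log2 fold change of -0.535, beside -0.181 over all members and 0.036 over all genes tested. In Zfp622KO morulae 5 of the 20 fell and 2 rose. The count in Ttf1KO comes to 60% of the list lower. Shares called lower in any list stand beside 30.9% of all members and 17.9% of all genes in Ttf1KO morulae. In Zfp622KO morulae these are 15.4% and 13.5%. Shares called higher in any list stand beside 11.1% of all members and 21.3% of all genes in Ttf1KO morulae, and 13.1% and 15.6% in Zfp622KO. Aurka, the Aurora A kinase of spindle poles, was at 343, 335, 399 and 459.6 CPM in Ttf1KO, 394 to 474 CPM in Zfp622KO and 614 to 681 CPM in WT, so both knockouts were below WT and overlapped each other. It fell by 0.76 ± 0.091 in Ttf1KO (adjusted p = 1.5e-05) and fell by 0.54 ± 0.091 in Zfp622KO (adjusted p = 4.2e-04). Bub1b, of the spindle checkpoint, fell by 0.93 ± 0.12 and 0.58 ± 0.11 in the same groups, and Cse1l, the export receptor of importin alpha, fell by 0.66 ± 0.076 and 0.43 ± 0.076. Against Zfp622KO all 20 mitosis members had a lower fitted level in Ttf1KO, beside 77% of all members, and 0 passed the test. The same held for all 15 members of splicing and RNA processing and all 11 of proteasome and ubiquitin, so this was not particular to mitosis.

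Of 11 members of the proteasome and ubiquitin pathway 9 fell in Ttf1KO morulae (81.8%, beside 30.9% of all members) and 0 rose (median -0.428), and 4 fell in Zfp622KO (36.4%, beside 15.4%). Psmd14, a deubiquitinase of the proteasome lid, was at 434 to 503 CPM in Ttf1KO, 484 to 579 CPM in Zfp622KO and 636 to 658 CPM in WT (-0.47 ± 0.070, adjusted p = 8.9e-05, in Ttf1KO). At the 2-cell stage 0 of the 11 passed the test in Ttf1KO, where 4 had a fitted level below WT. Among 11 members that act in ribosome assembly, are subunits of RNA polymerases I and III or host small nucleolar RNAs, 8 fell in Ttf1KO morulae (72.7%) and 5 in Zfp622KO (45.5%), with 0 rises in either. Polr1b, a large subunit of RNA polymerase I, was at 75.2, 62.4, 79.1 and 81.6 CPM in Ttf1KO, 79.9 to 86.9 CPM in Zfp622KO and 112 to 129 CPM in WT, and fell by 0.73 ± 0.086 in Ttf1KO (adjusted p = 1.4e-05). Snhg11, a noncoding host of small nucleolar RNAs, fell by 1.36 ± 0.20 in Ttf1KO and 1.04 ± 0.20 in Zfp622KO.

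Among 14 members of DNA replication and repair 7 fell (50%) and 1 rose in Ttf1KO morulae, and 4 fell and 1 rose in Zfp622KO. Samhd1, which breaks down nucleotides, was the rise, at 16.98 to 31.3 CPM in Ttf1KO against 6.86 to 14.5 CPM in WT (1.07 ± 0.20, adjusted p = 7.9e-04).

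Of 12 members of cell death and stress 5 fell and 0 rose in Ttf1KO morulae, a share lower of 41.7% beside 30.9% of all members, and 1 fell and 1 rose in Zfp622KO. Api5, an inhibitor of apoptosis, fell in both, from 354 to 401 CPM in WT to 289 to 326 CPM in Zfp622KO and 237 to 269 CPM in Ttf1KO (-0.58 ± 0.067, adjusted p = 1.2e-05), with no overlap between the groups. Of 12 chaperones and proteins of the endoplasmic reticulum 7 fell (58.3%) and 1 rose in Ttf1KO morulae, and 4 fell and 3 rose in Zfp622KO. Hspa5, the main chaperone of the endoplasmic reticulum, had the largest fall in Ttf1KO against WT morulae among members named by rule, with 148, 182, 151 and 396 CPM in Ttf1KO, 175 to 339 CPM in Zfp622KO and 1052, 549, 550.0 and 725 CPM in WT. All knockout libraries were below all WT libraries, which spread widely (-1.71 ± 0.38, adjusted p = 0.00597, in Ttf1KO). In Zfp622KO the fall (-1.39 ± 0.38, adjusted p = 0.0214) was lost without WT library 1 or Zfp622KO library 4.

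The next largest falls in Ttf1KO morulae were of metabolic enzymes. Galk2, a sugar kinase, fell by 1.62 ± 0.27 (adjusted p = 2.2e-04), from 6.51 to 7.63 CPM in WT to 1.93 to 2.85 CPM. Ext2, an enzyme of heparan sulfate synthesis, fell by 1.61 ± 0.26 (adjusted p = 2.0e-04), from 6.20 to 8.94 to 1.43 to 2.94 CPM. Both also fell in Zfp622KO, by 1.44 ± 0.27 and 1.22 ± 0.26.

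Lineage and early embryo genes had 5 falls (41.7%) and 3 rises (25%) among 12 members in Ttf1KO morulae and 2 falls and 3 rises in Zfp622KO. The share of rises in Ttf1KO was near the 21.3% of all genes called higher, beside 11.1% of all members. In Zfp622KO 15.6% of all genes and 13.1% of all members were called higher. Sall4, a zinc finger factor of pluripotent cells, was at 145 to 187 CPM in Ttf1KO and 203 to 229.8 CPM in WT, and fell by 0.37 ± 0.078 (adjusted p = 0.00159). Tfap2c, a factor of the trophectoderm, fell by 0.40 ± 0.088 (adjusted p = 0.0018), a call lost when WT libraries 3 and 4 were both left out. Ptges, a prostaglandin E synthase, fell by 1.32 ± 0.12 in Ttf1KO and 0.78 ± 0.12 in Zfp622KO. Bmp7, a growth factor, rose from 0.251 to 0.409 CPM in WT to 1.28 to 3.72 CPM in Ttf1KO and 1.61 to 5.06 CPM in Zfp622KO, a low level throughout (2.72 ± 0.47, adjusted p = 3.2e-04, in Ttf1KO). Pramel6 and Pramel7, neighbours of one family expressed in early embryos, fell by 0.86 ± 0.14 and 0.59 ± 0.090 in Ttf1KO. Counting used no option for reads that map to several places, so reads shared between such family members could be dropped.

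In the remaining lists there were 6 falls (40%) and 2 rises among 15 members of splicing and RNA processing in Ttf1KO morulae, 3 falls (37.5%) and 1 rise among 8 of translation, 1 fall (20%) among 5 imprinted genes, and 0 calls among 3 ribosomal protein genes, beside 30.9% of all members called lower. The largest rises named by rule in Ttf1KO against WT morulae were those of Cst9, a cystatin family gene, from 0.313 to 1.78 CPM in WT to 3.79 to 9.12 CPM in Ttf1KO (2.75 ± 0.40, adjusted p = 1.1e-04), and Map3k20, a stress-activated kinase, from 1.23 to 2.67 to 3.30 to 10.1 CPM (1.80 ± 0.35, adjusted p = 0.0011). Both also rose in Zfp622KO morulae, by 1.94 ± 0.41 and 1.62 ± 0.36.

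**Figure D5:**
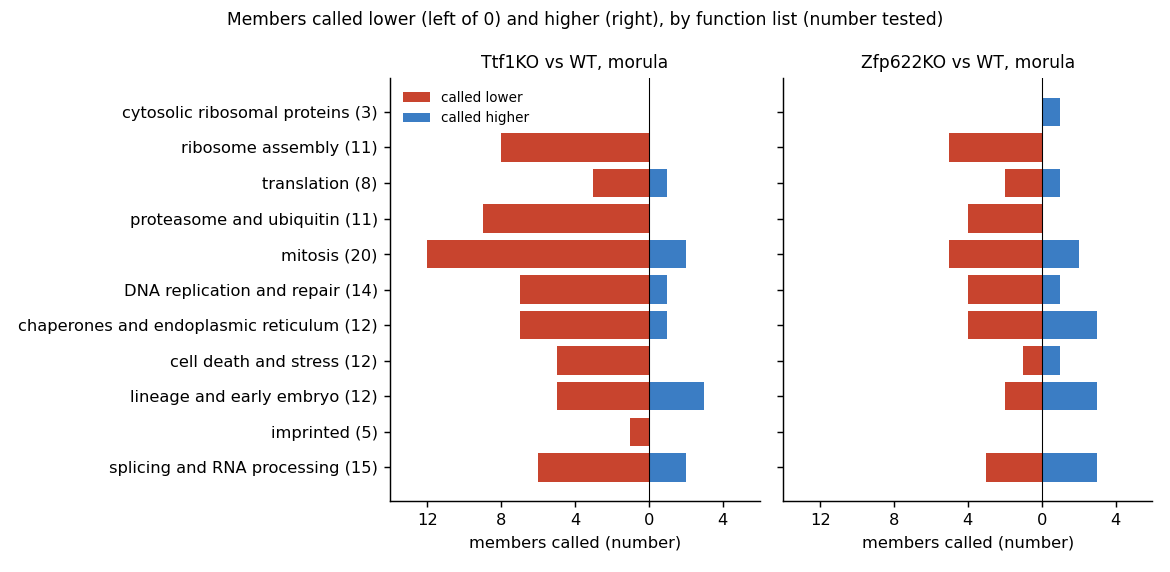
Bars give the number of members called lower (left of 0) and higher (right of 0) against wild type in morulae, by function list, with the number tested in brackets. In Ttf1KO mitosis (12 lower, 2 higher) and proteasome and ubiquitin (9 lower, 0 higher) have the longest bars to the left, and in Zfp622KO the same lists have 5 and 4 lower.

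Of 826 members tested at both stages, 5 fell in Ttf1KO against WT at both: Set, a histone chaperone, Esf1, Tpx2, an activator of Aurora A, Rbm39, a splicing factor, and Top1, a DNA topoisomerase. The only member called higher at both stages was 2900097C17Rik. The share of all genes called at both stages was not counted, so these 2 counts are not read as a trait of the region. By stage, 2.27% of members and 0.799% of all genes were called lower in 2-cell embryos, and 30.9% and 17.9% in morulae. Set was at 926 to 1141 CPM in Ttf1KO and 1204 to 1626 CPM in WT at the 2-cell stage, and at 2106 to 2569 and 2665 to 2910 CPM in morulae, with no overlap at either. It fell by 0.47 ± 0.087 (adjusted p = 0.0132) and 0.30 ± 0.075 (adjusted p = 0.00442), and in Zfp622KO it did not pass the test at either stage. Tpx2 and Rbm39 also fell in Zfp622KO morulae, by 0.43 ± 0.072 and 0.40 ± 0.070. The 2-cell calls of Tpx2 and Rbm39 were each lost in 6 of the 8 fits that left out a library compared, that of Set without WT library 2, and that of Top1 without WT library 2 or Ttf1KO library 4.

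The change of the Ttf1KO effect from the 2-cell to the morula stage was tested over all 24 libraries. It was negative for 122 members (12.3%) and positive for 10.5% of them, beside 8.65% and 12.5% of all genes. The member median of this change was 0.146 below that of the other autosomes. For Zfp622KO 56 members changed in each direction (5.65%), beside 4.21% and 6.45% of all genes. The effect on Clp1 changed by -1.08 ± 0.16 (adjusted p = 2.3e-05) and that on Rps21 by 0.76 ± 0.13 (adjusted p = 1.4e-04), so the change between stages was negative for one and positive for the other.

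At the ends of the stretch, Med27, a Mediator subunit near Ttf1, was at 266 to 312 CPM in Ttf1KO and 272 to 359 CPM in WT at the 2-cell stage, overlapping. Coq4, of ubiquinone synthesis, rose by 0.42 ± 0.11 in Ttf1KO morulae (adjusted p = 0.00517) and by 0.45 ± 0.11 in Zfp622KO (adjusted p = 0.00485). Polr3k, a subunit of RNA polymerase III near the end of the chromosome, rose by 0.38 ± 0.091 (adjusted p = 0.00373) and 0.46 ± 0.091 (adjusted p = 0.00152) in the same groups.

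The chromosome of the other target was measured in the same way. The 529 counted genes of chromosome 15 past Zfp622 were at -0.069, -0.084, -0.001 and 0.027 in Zfp622KO 2-cell libraries and at -0.104, -0.1, -0.036 and -0.075 in Zfp622KO morula libraries, against -0.019 to 0.022 and -0.026 to 0.019 in WT. Ttf1KO libraries were at 0.011 to 0.054 and -0.051 to -0.029. The lowest value there was -0.104, against -0.243 for the members in Ttf1KO, and Zfp622KO 2-cell libraries 3 and 4 were not below WT. The 53 counted genes of chromosome 15 before Zfp622 give the other side. Their median in Zfp622KO against WT was -0.004 at the 2-cell stage and -0.1 at the morula stage, relative to the other autosomes. Past Zfp622 the medians were -0.036 and -0.091, so in morulae the 2 medians were close. The library values were less alike in Zfp622KO morulae, with means of -0.079 ± 0.031 (SD, n = 4) past Zfp622 and -0.031 ± 0.05 before it. Before Zfp622 these libraries ran from -0.072 to 0.041. In Ttf1KO against WT morulae the genes before Zfp622 were at -0.083 and those past it at -0.048. These values were not tested against each other.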

How the data were processed

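Counts per gene were deposited by the authors, 1 file per library, and are not normalised. Per the submitters' processing notes, reads were aligned with HISAT2 2.2.1, and per the file headers counted with featureCounts 2.0.1 on paired reads over exons of Ensembl release 99 (GRCm38), with no strand option and no option for reads that map to several places. Smart-seq-style amplification from 10 embryos carries no molecular identifiers in these files, so counts include amplified copies. Reads were paired, 150 bases each, from an Illumina instrument.

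Counts were tested with edgeR 4.0.16 (R 4.3.3; limma 3.58.1) by its quasi-likelihood test, with filterByExpr, TMM scaling, robust dispersions and group means, in the 12 libraries of a stage, and in all 24 for changes between stages. P-values were adjusted by Benjamini-Hochberg over all genes tested, with a threshold of 0.05, and the scripts were tested on simulated data. CPM are TMM-scaled. Library values used log2 CPM with a prior count of 2, with a WT library's own value left out of its reference. Medians over members carry no test. Windows were 10 Mb wide, or 20 Mb for single libraries. Nothing says that replicates came from separate collections, so p-values measure the spread between these libraries, which may be technical.

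The region, its members and the gene lists were chosen with earlier results of these data known. Members were named by rule: the 8 largest falls and 8 largest rises against WT (4 in other comparisons) among annotated, non-predicted genes past the threshold whose libraries did not overlap and whose higher group had at least 5 CPM, the 5 nearest to Ttf1 and to the chromosome end, the 10 most abundant, and up to 4 per list; a subset is given with values, and some members are not reported here. Alternatives were DESeq2 1.42.0, other scalings, no filter, higher count minimums (50, 100), no robust fit, a replicate block, 1 fit of 24 libraries, pooled references, and libraries left out. Promoter windows are from RefSeq (GRCm38.p6).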

Additional observations from a re-analysis of the deposited data

Results flagged for a closer look

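Some libraries lay far from the other 3 of their group. Over 282 groups of 4 examined (the library values of the region and its neighbours, and the CPM of 43 named members) this held for 19, where chance alone marks about 1 in 20 groups. Ttf1KO morula library 1 had a member value of -0.092, against -0.243 to -0.223 in the other 3, so the smallest shift of that group was 1 library alone. Ttf1KO 2-cell library 3, whose member value was not low, also stood apart on chromosome 2 before Ttf1, at 0.051 against -0.091 to -0.073. Among WT libraries, morula library 2 was at 0.037 there against -0.004 to 0, and 2-cell library 1 at 0.022 on chromosome 15 past Zfp622 against -0.019 to -0.015.

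Levels of single members that stood apart are given in CPM, with the range of the other 3 libraries. In WT morulae Sp3os was at 73.2 (88.36 to 90.5) in library 1, Ccdc173 was at 4.154 (2.998 to 3.194) in library 1 and Med27 was at 98.19 (101.6 to 102.2) in library 1. In Ttf1KO morulae Set was at 2569 (2106 to 2178) in library 3, Rbm39 was at 203.5 (238.6 to 241.6) in library 2, Zfp120 was at 19.2 (12.52 to 12.88) in library 1, Hspa5 was at 396.3 (148.2 to 182.3) in library 4 and Ext2 was at 1.431 (2.692 to 2.938) in library 2. In Zfp622KO morulae Tpx2 was at 150.3 (169.3 to 173.1) in library 4, Rbm39 was at 237.3 (254.7 to 258.1) in library 3, Galk2 was at 0.9486 (3.025 to 3.143) in library 4 and Bmp7 was at 5.059 (1.613 to 1.946) in library 4. In Zfp622KO 2-cell embryos Galk2 was at 3.314 (1.979 to 2.068) in library 3. In Ttf1KO 2-cell embryos Bub1b was at 35.62 (26.78 to 27.29) in library 4. In WT 2-cell embryos Psmd14 was at 299.6 (246.8 to 253.5) in library 2.

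The effect of a knockout on a member differed between stages, by the test of that difference over 24 libraries (edgeR, adjusted p from 6.74e-09 to 0.0475 for Ttf1KO and from 4.34e-06 to 0.0449 for Zfp622KO), for 29 of the 43 named members in Ttf1KO and 14 in Zfp622KO. Named members were chosen in part by calls in these data, this test included, so these counts are no rate for the region. In Ttf1KO 12.3% of all members were called negative and 10.5% positive, beside 8.65% and 12.5% of all genes. In Zfp622KO 5.65% of members were called in each direction, beside 4.21% and 6.45%. Each value below is the log2 effect in morulae minus that in 2-cell embryos. In Ttf1KO it was negative for Ext2 (-2.057), Hspa5 (-1.648), Snhg11 (-1.563), Ptges (-1.547), Galk2 (-1.296), Clp1 (-1.078), Bub1b (-1.043), Polr1b (-0.827), Rae1 (-0.799), Pramel6 (-0.794), Aurka (-0.683), Zfp120 (-0.679), Depdc7 (-0.604), Cse1l (-0.599), Api5 (-0.546), Psmd14 (-0.506) and Pramel7 (-0.506). It was positive for Cst9 (3.275), Bmp7 (2.554), Map3k20 (2.380), Sp3os (1.954), Ccdc173 (1.862), Samhd1 (1.185), Zfas1 (1.023), Rps21 (0.756), Rpl35 (0.628), Pfdn4 (0.614), Eif2s2 (0.431) and Ppig (0.404). The negative values include members of mitosis and of the proteasome, and the positive values include the ribosomal protein genes, whose low level in Ttf1KO was seen at the 2-cell stage.

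In Zfp622KO the change was negative for Ext2 (-1.694), Snhg11 (-1.442), Galk2 (-1.419), Hspa5 (-1.400), Ptges (-1.026), Polr1b (-0.664), Aurka (-0.560), Psmd14 (-0.445) and Tpx2 (-0.399). It was positive for Bmp7 (2.701), Map3k20 (2.196), Cst9 (2.152), Ccdc173 (1.498) and Sp3os (1.370). The knockouts share their WT libraries, so these values are not separate evidence.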

How the results depend on the processing

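The difference between the member median and that of the other autosomes kept its sign in every setting for the 4 comparisons with Ttf1KO, while that of Zfp622KO against WT at the 2-cell stage, near 0 (0.006), ran from -0.005 to 0.016 with 1 library left out. The counts of calls moved more. In Ttf1KO against WT at the 2-cell stage (21 lower, 4 higher) no filter on low counts gave 52 and 7, DESeq2 47 lower, and the replicate block 2 higher (15 lower). Leaving out WT library 4, which carries 2 sample numbers, gave 9 and 1. Leaving out 1 library gave 7 to 19 lower and 1 to 2 higher, and a median of -0.150 (without Ttf1KO library 3) to -0.058 (without Ttf1KO library 4). In Ttf1KO against Zfp622KO at that stage (2 lower, 0 higher) total counts, no robust fit and the replicate block each gave 0 lower, no filter 15 lower and 1 higher, DESeq2 7 lower, all 24 libraries in one fit 4 lower, and leaving out 1 library 0 to 1 lower, with a median of -0.161 to -0.064. Zfp622KO against WT at that stage (0 lower) gave 2 lower with no filter and 0 with any 1 library left out.

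In morulae, Ttf1KO against WT (275 lower, 99 higher) gave 58 higher without WT libraries 3 and 4, which carry 2 sample numbers. With 1 library left out it gave 244 to 302 lower, 80 to 101 higher and a median of -0.249 at its lowest. Zfp622KO against WT (137 and 117) gave 68 and 54 without those libraries, and at least 113 and 86 with 1 library left out. Ttf1KO against Zfp622KO (6 lower, 0 higher) gave 31 and 2 with no filter, 33 and 2 with DESeq2, 3 lower with the replicate block, 1 higher with all 24 libraries in one fit, 0 lower without those WT libraries, and 0 to 18 lower and 0 to 1 higher with 1 library left out (median -0.203 to -0.136). Without those WT libraries and WT 2-cell library 4, the change of effect between stages gave 62 and 54 for Ttf1KO (122 lower) and 14 and 25 for Zfp622KO (56 and 56). With 1 library left out it gave 93 to 139 and 85 to 113, and 29 to 59 and 31 to 58. With the mean in place of the median the Zfp622KO change was -0.105 (-0.056). With WT and Zfp622KO libraries pooled as the reference the WT morula mean was 0.034 (0.000). The cause of these moves was not tested, except that settings with no filter test more genes and those with libraries left out have fewer samples.

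Same-numbered libraries did not deviate together (correlations of deviations -0.208 to 0.104), and the main fits did not pair them. Such low correlations cannot exclude that same-numbered libraries came from a shared collection. The block moved calls by over 1.5 times only in the counts given for it above. Of the calls of named members, those kept in every setting were 6 of 15 in Ttf1KO against WT at the 2-cell stage, 30 of 33 in morulae, 20 of 28 in Zfp622KO against WT morulae, and 0 of 2 and 0 of 6 in Ttf1KO against Zfp622KO. The 6 were those of Sp3os, Rps21, Rpl35, Zfas1, Eif2s2 and Ppig. Depth limits members near the minimum count of 10. The filter on low counts within a stage left 65 members untested at the 2-cell stage and 101 at the morula stage. All 992 were tested in the fits over both stages.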
